A study of Saccharomyces cerevisiae with 4 samples.

Results

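The 53 genes described here code for the proteins that license replication origins, open them and copy DNA at the fork in *S. cerevisiae*. They were listed by name and function, with earlier results of these data known, out of the 5449 genes that had a probe set assigned to a single gene on the Affymetrix Yeast Genome 2.0 array. Each of the 53 had exactly 1 probe set, and none of these probe sets was marked as shared between genes. Total RNA came from exponentially growing cultures, with 1 sample on each array. The RECQL5 group holds 3 arrays of W303-1A cells that carried pCM189::RECQL5-FLAG, from which the FLAG-tagged human DNA helicase RECQL5 is expressed under a tet promoter, and per the methods doxycycline, which shuts that promoter off, was not added. The WT group holds 1 array of the same strain carrying the empty pCM189 plasmid, so that the replicate error of WT values could not be measured. Both groups were MATa haploids with the alleles ade2-1, can1-100 and trp1-1 together with his3-11,15, ura3-1 and a mutant allele of *LEU2*, and both were grown with 2% glucose and without uracil, which selects for the plasmid. The plasmid name follows the labels, which give minimal medium. The methods give selective SC medium instead, and the paper's legends name another plasmid for the tet constructs. All 3 RECQL5 samples were taken as RECQL5 from their titles and strain labels, although the RNA source of replicates 2 and 3 is spelled RECQL6 and RECQL7. The transcript of the human gene was not analysed here, so the arrays give no check of its expression.

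Replication in budding yeast starts at defined origins. The origin recognition complex (ORC) marks them, Cdc6 and Cdt1 load the MCM helicase on them in G1, and kinases and helper factors then turn the helicase on in S phase by adding Cdc45 and the GINS complex. DNA polymerase epsilon extends the leading strand, polymerases alpha and delta make the lagging strand, and a sliding clamp, its loader, a single-strand binding protein and the enzymes that join Okazaki fragments complete the machinery. Many of these genes are transcribed in a burst at the G1/S transition under the factors MBF and SBF, whereas some MCM genes and *CDC6* are expressed around the M/G1 transition.

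Most of the replication genes read higher in cells expressing RECQL5, by less than 1.5-fold in the majority of cases. On all 3 RECQL5 arrays 46 of the 53 genes (86.8%) lay above the WT array, 5 lay below it on all 3 and 2 had RECQL5 values on both sides. Of all 5449 genes, 45.5% lay above WT on all 3 RECQL5 arrays and 39.7% lay below. The median log2 change (mean of the RECQL5 arrays minus WT) was 0.36 for the 53 genes, with quartiles of 0.20 and 0.49 and a range from −0.18 to 0.79, against a median of 0.03 and quartiles of −0.24 and 0.31 for all genes. The median log2 level of the 53 genes was 9.79, 9.83 and 9.87 on the RECQL5 arrays and 9.41 on the WT array, while the median of all genes was 10.26, 10.25 and 10.24 on the RECQL5 arrays and 10.24 on the WT array. Since the RNA came from whole cultures, a larger share of cells at the stage where these genes are used and more transcript per cell cannot be told apart.

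**Figure D1:**
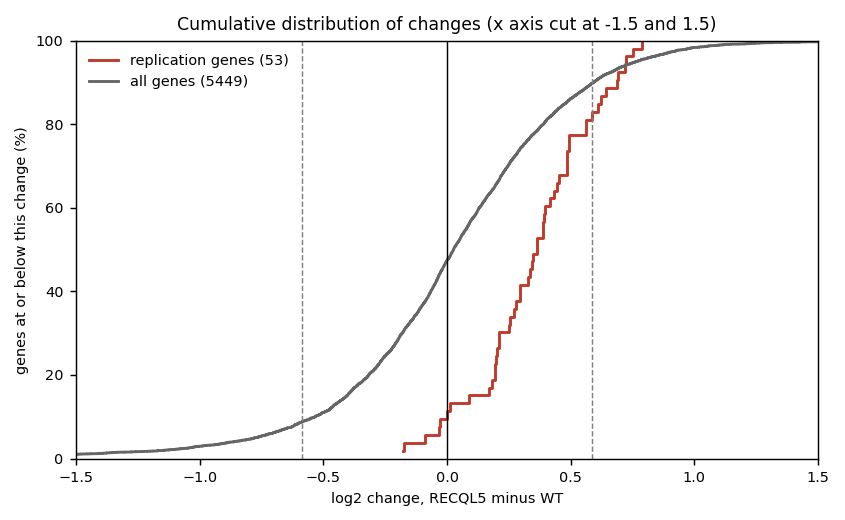
Cumulative share of genes (y axis, percent) at or below each log2 change of RECQL5 minus WT (x axis), for the 53 replication genes in red and all 5449 genes in grey, with 1.5-fold marked by dashed lines. The red curve runs to the right of the grey curve over most of its length, with medians of 0.36 and 0.03.

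A gene was called when its adjusted p did not exceed 0.1 and its change reached 1.5-fold, in limma fitted across the 4128 genes whose mean log2 level was at least 9.23, which is log2 of 600. Of the 53 replication genes 38 passed this level filter, and 6 of the 38 were below it on the WT array and passed only through their RECQL5 values. The genes called higher were *ORC1*, *ORC5*, *MCM6*, *PSF1*, *POL2* and *RAD27*, which makes 6 of 38, or 15.8%, against 9.59% called higher over all tested genes. No replication gene was called lower by limma, where 7.8% of all tested genes were. *ORC1* and *MCM6* were among the genes that passed the filter only through RECQL5. The others were *ORC4*, *TAH11*, *PSF3* and *DPB2*, none of them called. In a fit without the filter 10 of 53 (18.9%) were called higher, the additional ones being *CDC6*, *CDC45*, *DNA2* and *TOF1*, and again none was called lower, against 10.3% higher and 8.59% lower over all genes. With no requirement on size, the same unfiltered fit placed 41 of the 53 genes (77.4%) higher and 1, *PSF2*, lower at an adjusted p of 0.1 or less, and 11 genes did not pass, where 33.0% of all genes were higher and 26.7% lower. The 53 genes of the unfiltered fit include the 15 below the filter level. All of these p-values use only the spread of the 3 RECQL5 arrays, and the single WT array was taken to vary as they do.

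The spread among RECQL5 arrays was small beside the difference from WT. The SD of a gene over the 3 RECQL5 arrays ran from 0.0038 to 0.16 on the log2 scale, with a median of 0.051, beside a median change of 0.36. Between any 2 RECQL5 arrays the log2 differences of the 53 genes had an SD of 0.087 to 0.10, and between a RECQL5 array and the WT array an SD of 0.242 to 0.247. Over all tested genes the array pairs gave an SD of 0.108 to 0.180 within RECQL5 and 0.457 to 0.501 against WT. The SDs of array pairs measure how unequal the differences were across genes and leave out a shift shared by all genes. Any error in the WT value of a gene enters its change in full and could not be measured here.

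**Figure D2:**
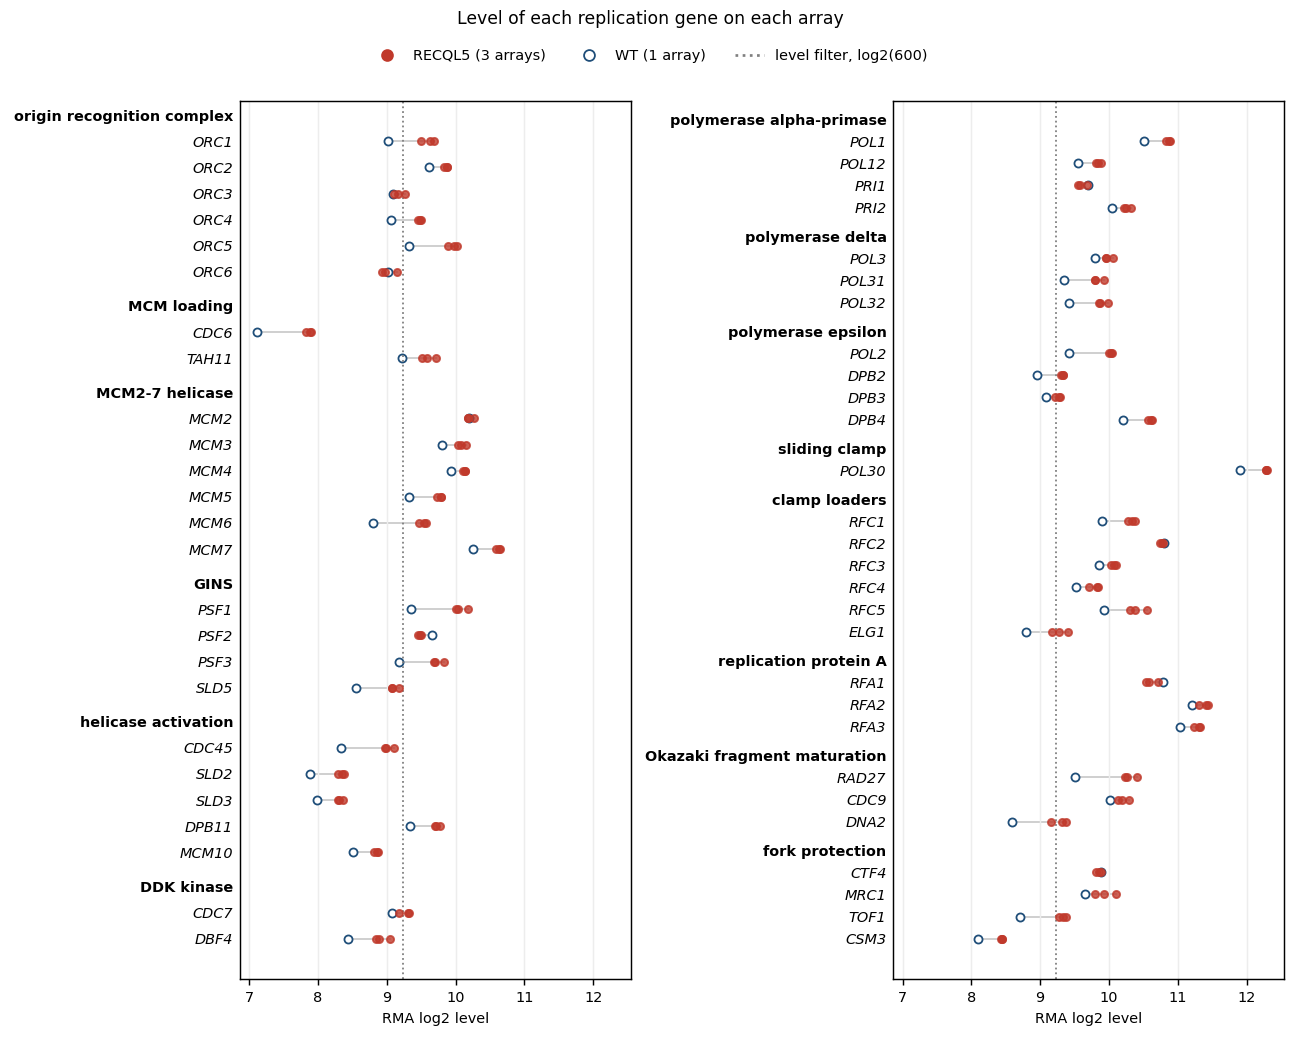
RMA log2 level (x axis) of each of the 53 replication genes by complex, with the 3 RECQL5 arrays as filled red points, the WT array as an open blue point and the level filter as a dotted line. The RECQL5 points cluster tightly and lie to the right of the WT point in 46 genes, with *PSF2*, *PRI1*, *RFC2*, *RFA1* and *CTF4* as the 5 genes whose RECQL5 points all lie to the left.

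Among the 6 genes of ORC, the complex that binds origins throughout the cell cycle, *ORC1* and *ORC5* rose and the other 4 were not called. *ORC5* (YNL261W), a subunit that binds ATP, had log2 levels of 9.98, 9.89 and 10.03 on the RECQL5 arrays and 9.32 on the WT array. The RECQL5 values lay well clear of WT, a change of 0.64 (SE 0.08, 1.56-fold, limma adjusted p = 0.00203). *ORC1* (YML065W), the largest subunit, whose ATPase drives helicase loading, read 9.50, 9.63 and 9.69 on the RECQL5 arrays and 9.02 on the WT array. Its change of 0.59 (SE 0.09, adjusted p = 0.00453) stood just at the 1.5-fold threshold, and the call was lost under cyclic loess, under median centring and without RECQL5 replicate 2 or 3. *ORC4* and *ORC2*, which complete the ring around origin DNA with the other large subunits, had changes of 0.42 and 0.25 and adjusted p-values of 0.00397 and 0.0191. *ORC4* read 9.06 on the WT array and passed the level filter only through its RECQL5 values. *ORC6* (YHR118C), which binds Cdt1, and *ORC3* did not pass the level filter. *ORC6* read 8.97, 8.93 and 9.15 on the RECQL5 arrays and 9.01 on the WT array, so that WT lay inside the RECQL5 range, with a change of 0.00 and a 95% interval from −0.28 to 0.28 in the unfiltered fit. *ORC3* read 9.16, 9.10 and 9.27 on the RECQL5 arrays and 9.09 on the WT array, and its change of 0.09 had an interval from −0.14 to 0.32.

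Both helicase loading factors read higher on every RECQL5 array. *CDC6* (YJL194W), the ATPase that joins ORC to load the MCM ring, lay below the level filter with 7.83, 7.89 and 7.89 on the RECQL5 arrays and 7.12 on the WT array. Its WT value was below the WT median of the 10 meiotic genes described further on, 7.60. This was the second largest change among the 53 genes, 0.75 (SE 0.07, 1.68-fold), and it was called in the unfiltered fit (limma adjusted p = 0.00286). *TAH11* (YJR046W), the gene for Cdt1, which escorts the MCM complex to the origin, had 9.72, 9.52 and 9.58 on the RECQL5 arrays and 9.21 on the WT array. *TAH11* passed the level filter only through its RECQL5 values. Its change of 0.39 (SE 0.09, adjusted p = 0.018) was below 1.5-fold.

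The 6 subunits of the MCM2-7 ring, the motor of the replicative helicase, are used in equal numbers but their transcripts differed by different amounts from WT. *MCM6* (YGL201C) rose, with 9.47, 9.57 and 9.54 on the RECQL5 arrays and 8.81 on the WT array, a change of 0.72 (SE 0.07, 1.65-fold, limma adjusted p = 0.00121). *MCM2* (YBL023C), a target of the Cdc7 kinase, read 10.27, 10.18 and 10.18 on the RECQL5 arrays and 10.20 on the WT array. Its change of 0.01 (adjusted p = 0.893) had a 95% interval from −0.16 to 0.19, which does not meet the interval of *MCM6*, 0.55 to 0.89, although the difference between the 2 genes was not tested. *MCM5*, *MCM7*, *MCM3* and *MCM4* lay between them, with changes of 0.45, 0.36, 0.28 and 0.20 and adjusted p-values of 0.00354, 0.0065, 0.0223 and 0.0389. For each of these 4 genes all RECQL5 arrays were above WT and the change stayed under 1.5-fold.

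The 4 genes of GINS, the complex that clamps Cdc45 to the MCM ring, split 3 to 1. Of these, *PSF3* read 9.17 on the WT array and passed the level filter only through its RECQL5 values. *PSF1* (YDR013W) rose, with 10.04, 10.003 and 10.18 on the RECQL5 arrays and 9.35 on the WT array, a change of 0.72 (SE 0.09, 1.65-fold, limma adjusted p = 0.00234). *PSF2* (YJL072C) had the opposite sign, with 9.49, 9.45 and 9.50 on the RECQL5 arrays and 9.65 on the WT array. The difference of −0.17 (SE 0.06, adjusted p = 0.0584) was small, with a 95% interval from −0.33 to −0.02. *PSF3* (YOL146W) was below the 1.5-fold threshold at 0.56 (SE 0.08, adjusted p = 0.00367), and *SLD5* (YDR489W), below the level filter with 9.08, 9.08 and 9.17 on the RECQL5 arrays and 8.55 on the WT array, also had a change of 0.56 (unfiltered adjusted p = 0.00544).

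The factors that activate the helicase read higher on all RECQL5 arrays in 5 of 5 cases, and 4 of them lay below the level filter. *CDC45* (YLR103C), which becomes part of the moving helicase, had 9.11, 8.97 and 8.99 on the RECQL5 arrays and 8.33 on the WT array, a change of 0.69 (SE 0.08, 1.62-fold) that was called in the unfiltered fit (limma adjusted p = 0.00439). Sld3 brings Cdc45 to the origin, and Sld2 and Sld3 are the substrates that S phase kinase phosphorylates so that Dpb11 can bind them. *SLD2* (YKL108W) read 8.35, 8.30 and 8.37 on the RECQL5 arrays and 7.88 on the WT array, with a change of 0.45 (unfiltered adjusted p = 0.00745). *SLD3* (YGL113W) read 8.30, 8.36 and 8.29 on the RECQL5 arrays and 7.99 on the WT array, with a change of 0.33 (unfiltered adjusted p = 0.0175). Mcm10, which is needed for the helicases to start moving, is encoded by YIL150C. *MCM10* read 8.87, 8.82 and 8.85 on the RECQL5 arrays and 8.50 on the WT array, with a change of 0.34 (unfiltered adjusted p = 0.0136). *DPB11*, the scaffold, passed the filter with a change of 0.40 (adjusted p = 0.00564).

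The 2 genes of the Dbf4-dependent kinase, which phosphorylates the MCM ring at the onset of S phase, were both below the level filter. *DBF4* (YDR052C), the regulatory subunit, read 8.85, 8.89 and 9.04 on the RECQL5 arrays and 8.44 on the WT array, a change of 0.49 (SE 0.10, unfiltered limma adjusted p = 0.0148). *CDC7* (YDL017W), the catalytic subunit, read 9.33, 9.31 and 9.18 on the RECQL5 arrays and 9.07 on the WT array. All RECQL5 values of *CDC7* were above WT, but the change of 0.20 did not pass (unfiltered adjusted p = 0.117, interval from −0.03 to 0.43).

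**Figure D3:**
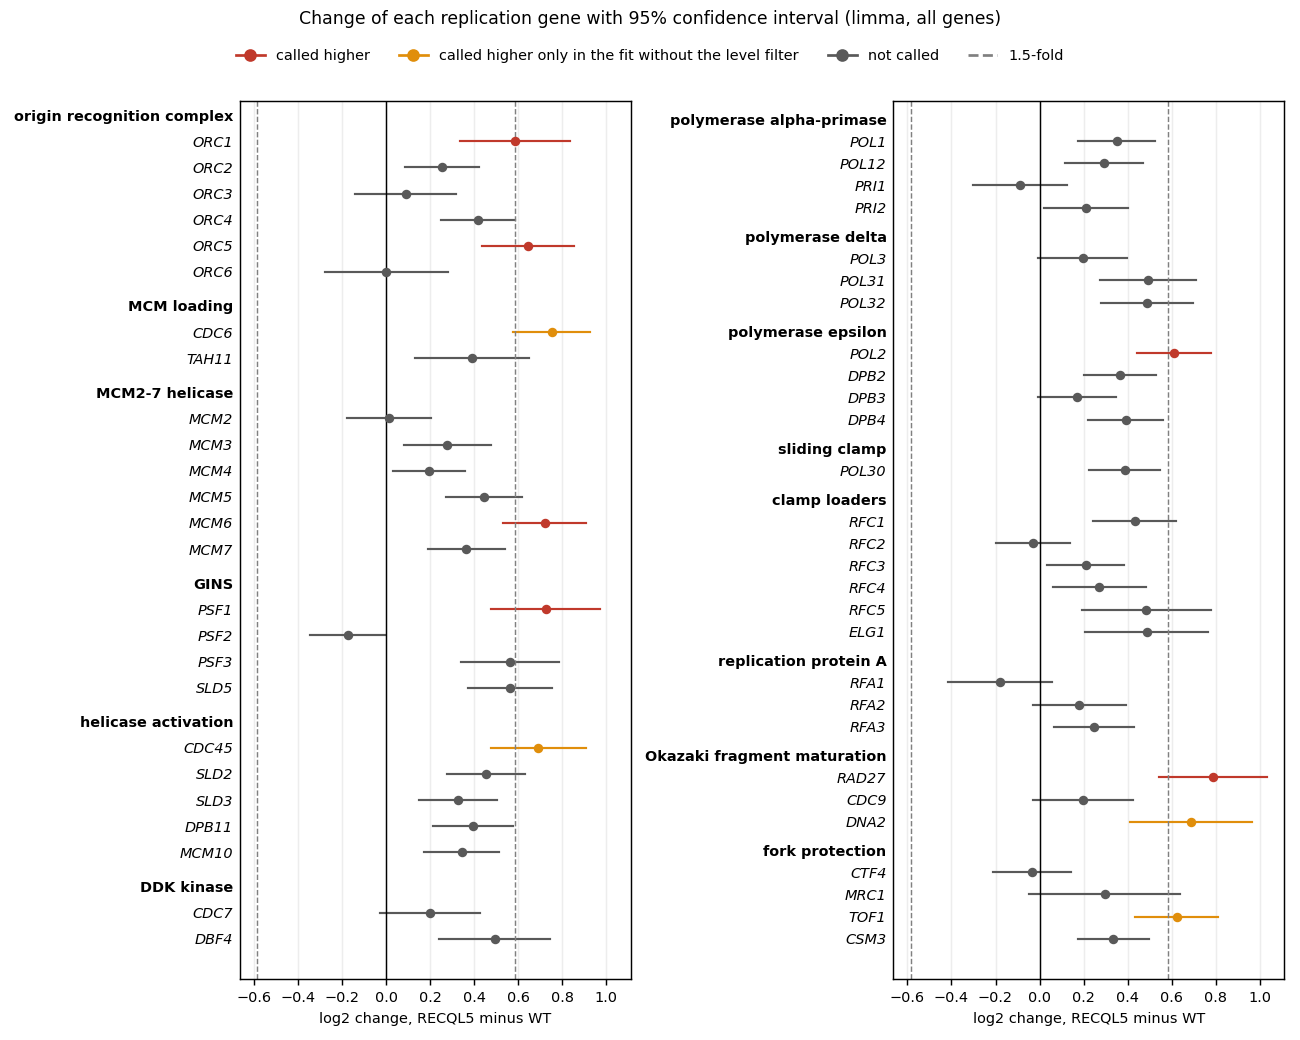
Log2 change of RECQL5 minus WT (x axis) for each of the 53 replication genes with its 95% confidence interval from limma fitted to all genes without the level filter. Red marks the 6 genes called higher, orange the 4 called only without the filter, grey the others, and dashed lines mark 1.5-fold, which no gene passed on the lower side.

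None of the 4 genes of DNA polymerase alpha-primase, which starts every new strand with an RNA and DNA primer, was called. *POL1* (YNL102W), the catalytic polymerase, had the highest change of the complex, with 10.82, 10.89 and 10.87 on the RECQL5 arrays and 10.51 on the WT array, a change of 0.35 (SE 0.06, limma adjusted p = 0.00742). *PRI1* (YIR008C), the catalytic primase, had the lowest, with 9.58, 9.68 and 9.54 on the RECQL5 arrays and 9.69 on the WT array, where the nearest RECQL5 array came close to WT. Its change of −0.09 (adjusted p = 0.376) had a 95% interval from −0.28 to 0.11. *POL12* and *PRI2*, the other two subunits, had changes of 0.29 and 0.21 with adjusted p-values of 0.014 and 0.0485.

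The polymerases of the 2 strands read higher in all 7 subunit genes. *POL2* (YNL262W), the catalytic subunit of polymerase epsilon, rose, with 10.003, 10.03 and 10.04 on the RECQL5 arrays and 9.41 on the WT array, a change of 0.61 (SE 0.06, 1.53-fold, limma adjusted p = 0.00136). Under cyclic loess its change was 0.56 and the call was lost. *POL2* and *ORC5* are adjacent genes transcribed in the same direction, and their changes of 0.61 and 0.64 were close to each other. *DPB2*, the essential second subunit, and *DPB4*, a histone-fold subunit, had changes of 0.36 and 0.39 with adjusted p-values of 0.00534 and 0.00486. *DPB2* read 8.96 on the WT array and passed the level filter only through its RECQL5 values. *DPB3* (YBR278W), the histone-fold partner of Dpb4, had the lowest change of the complex, with 9.28, 9.27 and 9.21 on the RECQL5 arrays and 9.08 on the WT array. It lay below the level filter, and its change was 0.17 (unfiltered adjusted p = 0.097).

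In polymerase delta the 2 accessory subunits had larger changes than the catalytic one, a difference that was not tested. *POL31* (YJR006W) read 9.79, 9.80 and 9.93 on the RECQL5 arrays and 9.35 on the WT array, a change of 0.49 (SE 0.08, limma adjusted p = 0.00499). *POL32*, the nonessential subunit that contacts the clamp, had a change of 0.49 as well (adjusted p = 0.00462). *POL3* (YDL102W), the catalytic subunit, read 10.06, 9.95 and 9.95 on the RECQL5 arrays and 9.79 on the WT array, a change of 0.20 (SE 0.07, adjusted p = 0.0695). The intervals of *POL3*, 0.01 to 0.38, and *POL31*, 0.29 to 0.69, overlapped.

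The sliding clamp PCNA, the ring that holds polymerases on DNA, is encoded by *POL30* (YBR088C). It read 12.29, 12.28 and 12.28 on the RECQL5 arrays and 11.90 on the WT array, a change of 0.39 (SE 0.06, 1.31-fold, limma adjusted p = 0.0044) with the second smallest RECQL5 SD of the set. Its convergent neighbour *RFC5* (YBR087W), a clamp loader subunit, read 10.30, 10.55 and 10.38 on the RECQL5 arrays and 9.93 on the WT array, a change of 0.48 (SE 0.11, adjusted p = 0.0135). Of the other subunits of replication factor C, the complex that opens and loads the clamp, *RFC1*, *RFC4* and *RFC3* had changes of 0.43, 0.27 and 0.21 with adjusted p-values of 0.00483, 0.0312 and 0.0385. *RFC2* (YJR068W) had the lowest value, with 10.78, 10.74 and 10.77 on the RECQL5 arrays and 10.79 on the WT array, a change of −0.03 (adjusted p = 0.705, 95% interval from −0.19 to 0.12). *ELG1* (YOR144C), the large subunit of the alternative loader that takes the clamp off DNA, lay below the level filter with 9.17, 9.27 and 9.40 on the RECQL5 arrays and 8.79 on the WT array. Its change of 0.49 was the highest of the clamp loaders (SE 0.11, unfiltered adjusted p = 0.02).

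Replication protein A, the trimer that coats single-stranded DNA, had the lowest median change of the complexes, 0.18 over its 3 genes, with none called. *RFA1* (YAR007C), the large DNA-binding subunit, had the lowest change of the 53 genes, with 10.54, 10.59 and 10.71 on the RECQL5 arrays and 10.79 on the WT array. The change of −0.18 (SE 0.09) did not pass (limma adjusted p = 0.132, 95% interval from −0.40 to 0.04). *RFA3* (YJL173C), the smallest subunit, read 11.32, 11.24 and 11.30 on the RECQL5 arrays and 11.04 on the WT array, a change of 0.25 (adjusted p = 0.0252). *RFA2*, the subunit that checkpoint kinases phosphorylate, had a change of 0.18 (adjusted p = 0.0986, and 0.126 without the level filter).

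Okazaki fragment maturation gave the highest change of the set. *RAD27* (YKL113C), the flap endonuclease that removes the displaced primer, rose, with 10.40, 10.23 and 10.26 on the RECQL5 arrays and 9.51 on the WT array. The change of 0.79 (SE 0.09, 1.73-fold, limma adjusted p = 0.00179) had a 95% interval from 0.56 to 1.01. *DNA2* (YHR164C), a helicase and nuclease that cuts long flaps, read 9.31, 9.15 and 9.38 on the RECQL5 arrays and 8.60 on the WT array. *DNA2* lay below the level filter and was called in the unfiltered fit at 0.69 (SE 0.11, 1.61-fold, adjusted p = 0.0081). *CDC9* (YDL164C), the DNA ligase that seals the fragments, read 10.19, 10.13 and 10.29 on the RECQL5 arrays and 10.01 on the WT array, a change of 0.20 (SE 0.08, adjusted p = 0.0928, and 0.12 without the filter).

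The 4 genes that protect and pace the fork were spread. *TOF1* (YNL273W), which holds the checkpoint mediator at the fork together with Csm3, lay below the level filter with 9.27, 9.33 and 9.37 on the RECQL5 arrays and 8.70 on the WT array. It was called in the unfiltered fit at 0.62 (SE 0.07, 1.54-fold, limma adjusted p = 0.00419), and lost that call under cyclic loess at 0.58. Its partner *CSM3* (YMR048W) read 8.44, 8.44 and 8.43 on the RECQL5 arrays and 8.10 on the WT array, a change of 0.33 (SE 0.06, unfiltered adjusted p = 0.0125). *MRC1* (YCL061C), the mediator itself, read 9.79, 9.93 and 10.10 on the RECQL5 arrays and 9.65 on the WT array, with the widest RECQL5 spread of the 53 genes. Its change was 0.30 (SE 0.12, adjusted p = 0.0946, and 0.124 without the filter). *CTF4* (YPR135W), which ties polymerase alpha to the helicase, read 9.81, 9.86 and 9.88 on the RECQL5 arrays and 9.88 on the WT array, a change of −0.03 (adjusted p = 0.681, interval from −0.20 to 0.13).

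The higher values were spread over the range of expression. The 15 genes below the level filter had a median change of 0.45, and 14 of them lay above WT on all RECQL5 arrays. The 32 genes whose WT value alone reached the filter had a median change of 0.29, and 26 of them lay above WT on all RECQL5 arrays, a group that the RECQL5 values did not help to pass. By mean log2 level, the median change was 0.45 for 7 genes from 8 to 9, 0.39 for 28 genes from 9 to 10, 0.24 for 14 genes from 10 to 11 and 0.25 for 3 genes above 11, with *CDC6* alone below 8. The median of all genes in the same ranges was 0.04, 0.04, 0.03 and −0.02.

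Genes that work beside the 53 at the fork were mixed. Over all tested genes 9.59% were called higher and 7.8% lower. Of 11 genes for primer removal, topoisomerases and fork helicases 8 were tested, with a median change of 0.60 over those tested and 0.45 over all 11. Of the 8 tested, *RMI1*, *SGS1* and *RNH202* read 9.16, 8.84 and 9.10 on the WT array, below the filter level. They passed only through their RECQL5 values. Among the 8 tested, 4 were called higher and none lower. These 4 were *RMI1*, a partner of the Sgs1 helicase and Top3, with a change of 1.11 (SE 0.10, limma adjusted p = 0.0012), *EXO1*, an exonuclease, with 0.87 (SE 0.11, adjusted p = 0.0023), *RNH203*, a subunit of RNase H2, with 0.83 (SE 0.08, adjusted p = 0.0012), and *TOP2*, topoisomerase II, with 0.64 (SE 0.06, adjusted p = 0.0012). Among 7 other initiation and origin factors 5 were tested and 2 were called higher, *NOC3*, whose product binds ORC and MCM proteins, with 0.74 (SE 0.06, adjusted p = 0.0010), and *FKH2*, a forkhead factor, with 0.63 (SE 0.07, adjusted p = 0.0015). Of those 5, *FKH2* and *RIF1* read 9.01 and 9.21 on the WT array and passed the filter only through their RECQL5 values. The median over the 5 tested was 0.52. *FKH1*, the related forkhead factor below the filter, was called higher in the unfiltered fit at 0.90 (adjusted p = 0.0026). Of 8 genes for helicase unloading and cullin ubiquitin ligases, all tested, none was called higher and *NPL4*, a Cdc48 cofactor, was called lower at −0.60 (SE 0.09, adjusted p = 0.0034), with a median of −0.15. In this list *DIA2* read 8.93 on the WT array and passed the filter only through its RECQL5 values.

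No gene was called in the lists for other clamp loaders and the checkpoint clamp, replication-coupled chromatin assembly, or replication checkpoint kinases. Of the 7 other clamp genes 2 were tested, *CTF18* with a change of 0.39 and *CTF8* with −0.09, both parts of a loader used in sister chromatid cohesion. Of the 11 chromatin assembly genes 6 were tested, with a median of 0.24, and *CAC2* and *ASF1*, for histone chaperones, were highest among those tested at 0.43 each. Over all 11 the median was 0.37, and *RTT106*, for another histone chaperone, and *MMS22*, both below the filter, had larger changes of 0.57 and 0.56. Of the 7 checkpoint genes 5 were tested, with a median of 0.30, and *MEC1*, the upstream kinase, and *DUN1*, a downstream kinase, had changes of 0.57 and 0.35. *RAD53*, in the same list and below the filter, had a change of 0.44, between those of *MEC1* and *DUN1*. The values given for these lists all lay below 1.5-fold. Of the tested genes named, *CTF18*, *CAC2*, *ASF1* and *MEC1* read 9.06, 9.05, 9.18 and 8.81 on the WT array. They passed the filter only through their RECQL5 values. So did *TEL1*, which read 9.22 on the WT array and whose change was the checkpoint median of 0.30.

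Of the genes that mark stages of the cell cycle, those of G2/M were called most often, where 9.59% of all tested genes were called higher. Of the 9 S phase cyclin, MBF and SBF genes 6 were tested and none was called, with *CLN1* and *CLN2*, the G1 cyclins, at 0.56 and 0.42, and the median change was 0.20 over those tested and 0.42 over all 9. The S phase cyclin *CLB5*, below the level filter, had the largest change of the list and was called higher in the unfiltered fit at 0.72 (limma adjusted p = 0.0035), while *CLB6*, another S phase cyclin, and *SWI4*, the DNA-binding subunit of SBF, were below 1.5-fold at 0.55 and 0.51. Of 14 G1/S genes outside replication 11 were tested, with a median of 0.33, and 1 was called higher, *GIC2*, a Cdc42 effector, with 0.60 (SE 0.08, limma adjusted p = 0.0030). *SPT21*, below the filter and needed for histone gene expression, was called higher in the unfiltered fit at 0.66 (adjusted p = 0.0040). The summed linear level of these 14 genes was 31815, 31680 and 32386 on the RECQL5 arrays and 27871 on the WT array. They include *CLN1*, *CLN2* and *CLB6*, which are also in the S phase cyclin, MBF and SBF list and count in both. Of the G2/M genes 9 of 10 were on the array and tested, 6 were called higher and none lower, with a median of 0.66, led by *CDC5*, the polo kinase, at 0.86 (SE 0.08, adjusted p = 0.0012), *KIN3* at 0.78 (SE 0.12, adjusted p = 0.0048) and the mitotic cyclins *CLB1* at 0.75 (SE 0.07, adjusted p = 0.0013) and *CLB2* at 0.71 (SE 0.12, adjusted p = 0.0053). Their summed linear level was 13315, 12511 and 12680 on the RECQL5 arrays and 8049 on the WT array, and none was at 0. Of the tested G2/M genes, *CLB2* and *CDC20* read 8.85 and 8.98 on the WT array, below the filter level. Both passed only through their RECQL5 values.

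The histone genes and the M/G1 genes did not share this direction. None of 9 histone genes was called, the median change was −0.04, and the changes of *HTB2* for histone H2B and *HHO1* for the linker histone were 0.16 and −0.13. Their summed linear level was 88439, 92244 and 93007 on the RECQL5 arrays and 93608 on the WT array. None of 8 M/G1 genes was called, the median was −0.15, and *RME1*, a repressor of meiosis, and *PCL9*, a cyclin, had changes of −0.49 and −0.37. *SIC1* is both in this list and in the S phase cyclin, MBF and SBF list. The part of a shift in cell cycle stages in the values of the replication genes was not tested.

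**Figure D4:**
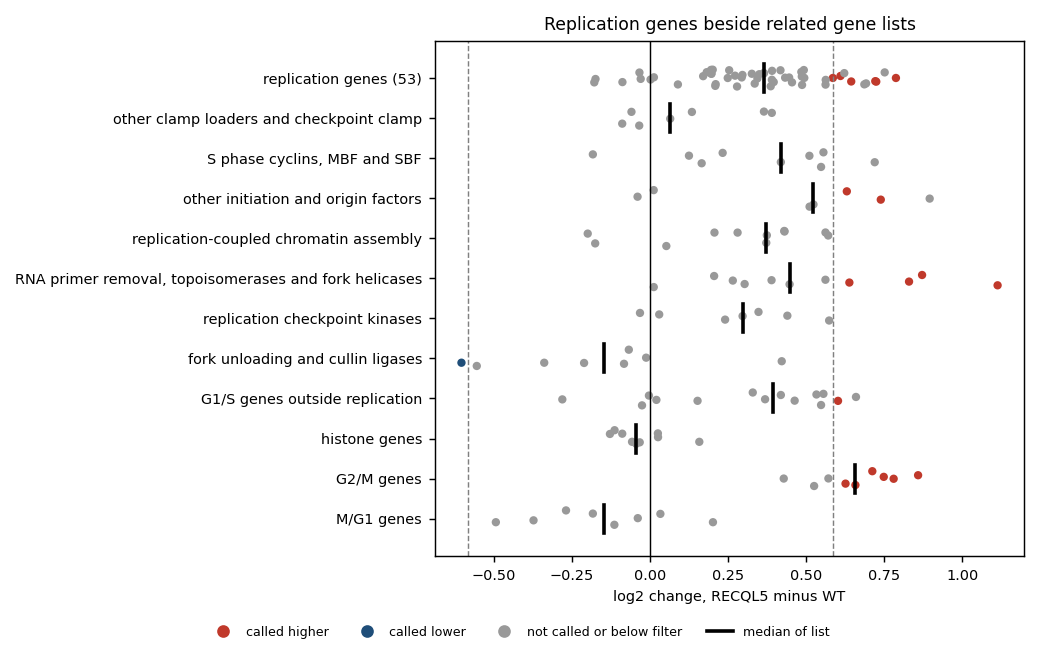
Log2 change of RECQL5 minus WT (x axis) of the 53 replication genes and of each related gene list, 1 point for each gene on the array, with black bars for list medians, red for genes called higher, blue for called lower and grey for genes not called or below the level filter. The medians of the replication genes (0.36) and the G2/M genes (0.66) lie to the right of 0, and those of the histone genes (−0.04), the M/G1 genes (−0.15) and the unloading and cullin genes (−0.15) lie to the left.

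As a check of the strain, the 6 markers of mating type a were summed on the linear scale. The sum was 39077, 34793 and 32356 on the RECQL5 arrays and 39374 on the WT array. Their median change was 0.02, and 1 of them, the pheromone gene *MFA1*, was called lower at −0.63. *MFA2* and *AGA2* had changes of −0.27 and −0.11, while *STE6*, *BAR1* and *STE2* had changes of 0.55, 0.28 and 0.15. None of these other markers was called. Of the 4 markers of mating type alpha only *SAG1* passed the level filter, with a change of 0.28, and their summed linear level was 934, 900.2 and 864 on the RECQL5 arrays and 985 on the WT array. *SAG1* read 9.07 on the WT array and passed only through its RECQL5 values. In the unfiltered fit the alpha pheromone gene *MFALPHA1* was called lower, with log2 levels of 6.49, 6.85 and 5.81 on the RECQL5 arrays and 7.96 on the WT array. None of the 10 meiotic genes passed the filter. Their median log2 level was 7.58, 7.62 and 7.56 on the RECQL5 arrays and 7.60 on the WT array, and their summed linear level was 2050, 2086 and 1737 on the RECQL5 arrays and 2516 on the WT array. Single meiotic genes differed more than these medians show, with *HOP1* and *SPO11* called lower at −1.40 and −1.37 and *IME2* called higher at 0.88 in the unfiltered fit, and *SPO11* read 9.90 on the WT array, above the filter level. The part of such differences of the single WT array in the values of the replication genes was not tested. Pearson's r over the tested genes was 0.989 to 0.996 between RECQL5 arrays and 0.917 to 0.931 between a RECQL5 array and WT.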

How the data were processed

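The authors hybridized total RNA to Affymetrix Yeast Genome 2.0 arrays and deposited log2 values made by RMA, 1 for each probe set and array. Per the methods, the single WT array was standardized with published arrays, and no source used here says whether the deposited values precede that step. Of 10928 probe sets in the table, 5498 had 1 gene in the platform annotation, and for the 47 genes with several the probe set with the highest mean was used. Of 118 genes in the related lists, 2 could not be matched. RECQL5 was compared with WT in limma 3.58.1 (lmFit and eBayes, two-sided, R 4.3.3) over genes with a mean of at least log2(600), with Benjamini-Hochberg adjustment over all tested genes, and calls needed 1.5-fold and an adjusted p no higher than 0.1, after the methods. Fits without the filter serve members below it. The fit had 2 residual degrees of freedom, all from RECQL5 arrays. The procedure was tested on simulated data. The number of arrays limits the precision.

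Members and lists were chosen with earlier results of these data known, so counts and medians are given without set tests. Per-array values are given for called members, for the highest and lowest change in each complex and for members below the filter. From each other list, up to 4 called genes with the largest change are named, or the 2 largest changes where none was called. Alternatives covered the filter, normalization, probe set choice, the variance prior, the threshold and leaving out each RECQL5 array. The labels give no batch.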

Additional observations from a re-analysis of the deposited data

How the results depend on the processing

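With limma, 6 replication genes were called higher and 0 lower. Without the level filter 10 were called higher. The count was 4 of 32 tested with the filter on every array, where *ORC1* and *MCM6* were not tested, and 4 of 37 under cyclic loess. Over all tested genes 8.61% and 8.15% were called higher in these settings. Under median centring the count was 5 of 38, against 9.08% over all tested genes. The count was 5 to 7 with 1 RECQL5 array left out and 6 otherwise. Over all tested genes 9.41% to 9.84% and 9.25% to 9.79% were called higher in these settings. *ORC1* lost its call under cyclic loess (0.54), median centring (0.57) and without RECQL5 replicate 2 (0.57) or 3 (0.55), *POL2* under cyclic loess (0.56), and *PSF3* gained one without replicate 1. No setting called a member lower. The median over tested members, 0.36, moved to 0.29 with the filter on every array, 0.31 under cyclic loess and 0.31 to 0.35 with 1 RECQL5 array left out. In settings chosen after seeing the data, all without the level filter, the median over the 53 genes, 0.36, was 0.32 under cyclic loess and 0.35 under median centring and 0.36 with any RECQL5 array left out. There, the count called higher, 10, was 7 under cyclic loess, which also removed *TOF1* (0.58), 9 under median centring and 9 to 11 with 1 array left out. Over all genes 8.53%, 9.73% and 10.2% to 10.3% were called higher in these settings. The 41 genes higher at any size became 37, 39 and 35 to 42, and the 46 genes above WT on all RECQL5 arrays became 45 under cyclic loess. The matching shares over all genes, 33.0% and 45.5%, are given only for the unfiltered fit of the deposited values. Changes near 0 turned sign: *MCM2* was −0.037 under cyclic loess and −0.018 to 0.027 with 1 RECQL5 array left out, lowest without replicate 1, and *ORC6* was −0.041 under cyclic loess, −0.011 under median centring and −0.065 to 0.045 with 1 RECQL5 array left out, lowest without replicate 3. The cause was not tested. No paired analysis was possible because the groups share only replicate number 1.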

Other observations

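The genes that lie next to the replication genes on the chromosome, 98 genes outside the set, had a median log2 change of 0.13, against 0.03 for all genes. In the fit without the level filter 11 of the 98 were called higher and 7 lower, where 10.3% of all genes were called higher and 8.59% lower, so that their counts were near the background.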
